A study of Mus musculus with 39 samples.

Results

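The DNA replication machinery is described here as 43 genes whose protein products prepare replication origins, unwind and copy DNA, supply nucleotides or restore chromatin behind the fork. The genes were named one by one for these functions and not by a cut on their measured values. Earlier results of these data were known when they were chosen. They are 43 of the 29980 genes in the deposited count table. All 43 passed the filter on low counts, so each was tested. They were measured by RNA sequencing in C2C12 cells, an established line of mouse myoblasts, which stop dividing and form myotubes once serum is lowered. The WT and KO groups are, in this order, unmodified C2C12 cells, and FlncKO-C2C12 cells, which had been edited with CRISPR/Cas9 and a guide against the first exon of Flnc, the gene of the actin-binding protein filamin C. Each genotype was sampled on day 0, in growth medium with 10% fetal bovine serum, and on days 1, 2, 4 and 6 after a change to medium with 2% horse serum. Each of the 10 groups had 4 libraries, numbered 1, 3, 4 and 5, except KO day 2, which had 3 (numbers 1, 3 and 5). The labels name 1 WT line and 1 KO line and do not say whether the KO line is a clone or whether libraries of a group came from separate cultures, so p-values measure the spread between these libraries, and a difference between the lines that arose apart from Flnc cannot be told apart from one that follows the edit.

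Library totals ran from 6838281 to 28902526 counts. Levels are given as CPM, each count as parts of its library's total after scaling by the trimmed mean of M values, and values of single libraries are listed in the order of their numbers. Flnc itself had a mean of 672 CPM in WT on day 0 and 29.3 CPM in KO, and 1639 and 118 CPM on day 6; the libraries of the genotypes did not overlap on any day. The C2C12 identity was checked on 10 myoblast and myotube genes. Their summed level had group means that went from 2966 to 20647 CPM in WT and from 2358 to 8242 CPM in KO between day 0 and day 6. At an adjusted p under 0.05, 4, 6 and 6 of the 10 were lower in KO than in WT on days 0, 1 and 2. On those days 0, 1 and 1 were higher. Of all genes tested, 9.09%, 9.93% and 10.3% were lower and 6.46%, 8.1% and 7.64% higher. Summed macrophage markers stayed between 0.503 and 7.96 CPM in every library, with Adgre1 at 0 throughout, and summed endothelial markers between 0 and 2.20 CPM. Summed adipocyte markers ran from 6.11 to 38.9 CPM. Summed fibroblast markers were far higher, from 262 CPM in a WT day 6 library to 4344 CPM in a KO day 1 library. Of the members, 17 overlap an annotated gene on the other strand and 10 one on the same strand; the strand setting of the counting is not given in the sources used here.

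Replication starts at origins marked by the origin recognition complex, where Cdc6 and Cdt1 load the MCM2-7 ring in an inactive form. On entry into S phase, cyclin E kinase activity, Mcm10, Cdc45 and the GINS complex turn the ring into a working helicase, and polymerases held by the PCNA clamp copy both strands. Many of these genes are targets of E2F transcription factors, which the retinoblastoma protein family holds in check when myoblasts withdraw from the cell cycle. In bulk RNA, fewer cells that express a gene and less RNA of it per cell cannot be told apart.

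The promoters of 5 members are shown because the members fell together. A further reason is that the E2F forms searched for stand in some promoters and not in others. These forms are among the letters that E2F factors are known to bind and are listed below. Each promoter is the run of 250 bases that ends just before the RefSeq transcript start (GRCm38.p6), 5′ to 3′ on the strand of the gene. The letters of an E2F form are in capitals. Mcm5 (chr8:75109259-75109508, plus strand) has a pair of overlapping forms, Mcm6 (chr1:128359706-128359955, minus strand) an overlapping pair and a single form nearer the start, and Pola1 (chrX:93632156-93632405, minus strand) a single form. Rrm1 (chr7:102441445-102441694, plus strand) and Cdt1 (chr8:122567765-122568014, plus strand) hold none of the forms searched for.
Mcm5: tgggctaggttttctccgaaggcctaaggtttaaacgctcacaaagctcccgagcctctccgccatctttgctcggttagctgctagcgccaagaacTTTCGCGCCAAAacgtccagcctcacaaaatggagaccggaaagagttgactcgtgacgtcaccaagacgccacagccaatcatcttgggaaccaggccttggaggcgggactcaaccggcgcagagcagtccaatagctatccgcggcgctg
Mcm6: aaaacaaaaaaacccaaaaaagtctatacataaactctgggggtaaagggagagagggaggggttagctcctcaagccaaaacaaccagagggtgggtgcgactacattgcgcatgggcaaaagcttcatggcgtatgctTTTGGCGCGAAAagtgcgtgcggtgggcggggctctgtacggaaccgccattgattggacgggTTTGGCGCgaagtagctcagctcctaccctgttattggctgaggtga
Pola1: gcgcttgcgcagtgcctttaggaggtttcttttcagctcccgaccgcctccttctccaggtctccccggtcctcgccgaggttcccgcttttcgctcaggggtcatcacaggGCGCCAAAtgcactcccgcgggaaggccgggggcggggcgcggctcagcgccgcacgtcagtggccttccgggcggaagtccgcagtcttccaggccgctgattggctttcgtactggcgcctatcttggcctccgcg
Rrm1: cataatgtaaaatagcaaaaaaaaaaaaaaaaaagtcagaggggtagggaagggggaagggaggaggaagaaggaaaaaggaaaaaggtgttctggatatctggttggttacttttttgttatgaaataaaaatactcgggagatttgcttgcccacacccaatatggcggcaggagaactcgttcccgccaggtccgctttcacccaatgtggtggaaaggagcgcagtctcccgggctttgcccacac
Cdt1: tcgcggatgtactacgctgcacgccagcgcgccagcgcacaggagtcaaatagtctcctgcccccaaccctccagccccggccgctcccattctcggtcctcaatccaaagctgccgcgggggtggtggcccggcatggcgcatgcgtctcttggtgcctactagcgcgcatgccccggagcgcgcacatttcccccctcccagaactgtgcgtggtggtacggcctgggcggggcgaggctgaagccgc

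The E2F forms searched on both strands were TTTCCCGC, TTTCGCGC, TTTGCCGC and TTTGGCGC, counted once where they overlap. RefSeq promoters were found for 34 of the 43 members, and 9 of these 34 (26.5%) held a form: Orc1, Cdc6, Mcm5, Mcm6, Mcm7, Gins3, Pola1, Rfc3 and Uhrf1, the last in one of its several entries. Among all 27025 genes with a promoter of this length the share was 2.16%. The shorter CCAAT box stood in 21 of the 34 (61.8%), beside 37.5% of all genes. Holding a form did not separate the members by how far they had fallen: the median level left on day 6 was 7.22% of day 0 in WT for the 9 with a form (range 1.33% to 55.0%) and 10.4% for the 25 without one (0.883% to 66.9%). In KO the medians were 8.49% and 10.1%, with ranges that overlapped as widely. A match describes letters and not binding, and a missing match says only that these letters are not in the window. Close variants were not searched for: the Rrm1 window holds gttcccgc, which differs from TTTCCCGC in its first letter.

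Nearly all members fell during differentiation in both lines, and none rose at any day. In WT, 9 of 43 were below day 0 on day 1 by edgeR's quasi-likelihood test at an adjusted p under 0.05, against 1.87% of all 13780 genes tested. On day 2 the count was 40 (13.6% of all genes lower), on day 4 it was 42 (24.3%), and on day 6 it was 41 (27.8%). In KO, 17 members were below day 0 on day 1 (3.8% of all genes), and 42 on each of day 2 (13.9%), day 4 (19.6%) and day 6 (23.1%). The median log2 change of the 43 members was -1.003, -2.33, -3.35 and -3.34 on days 1, 2, 4 and 6 in WT, and -1.21, -2.83, -3.11 and -3.32 in KO, where the median over all genes tested lay between -0.08 and 0.02. The 4 comparisons of a line share its day 0 libraries.

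**Figure D1:**
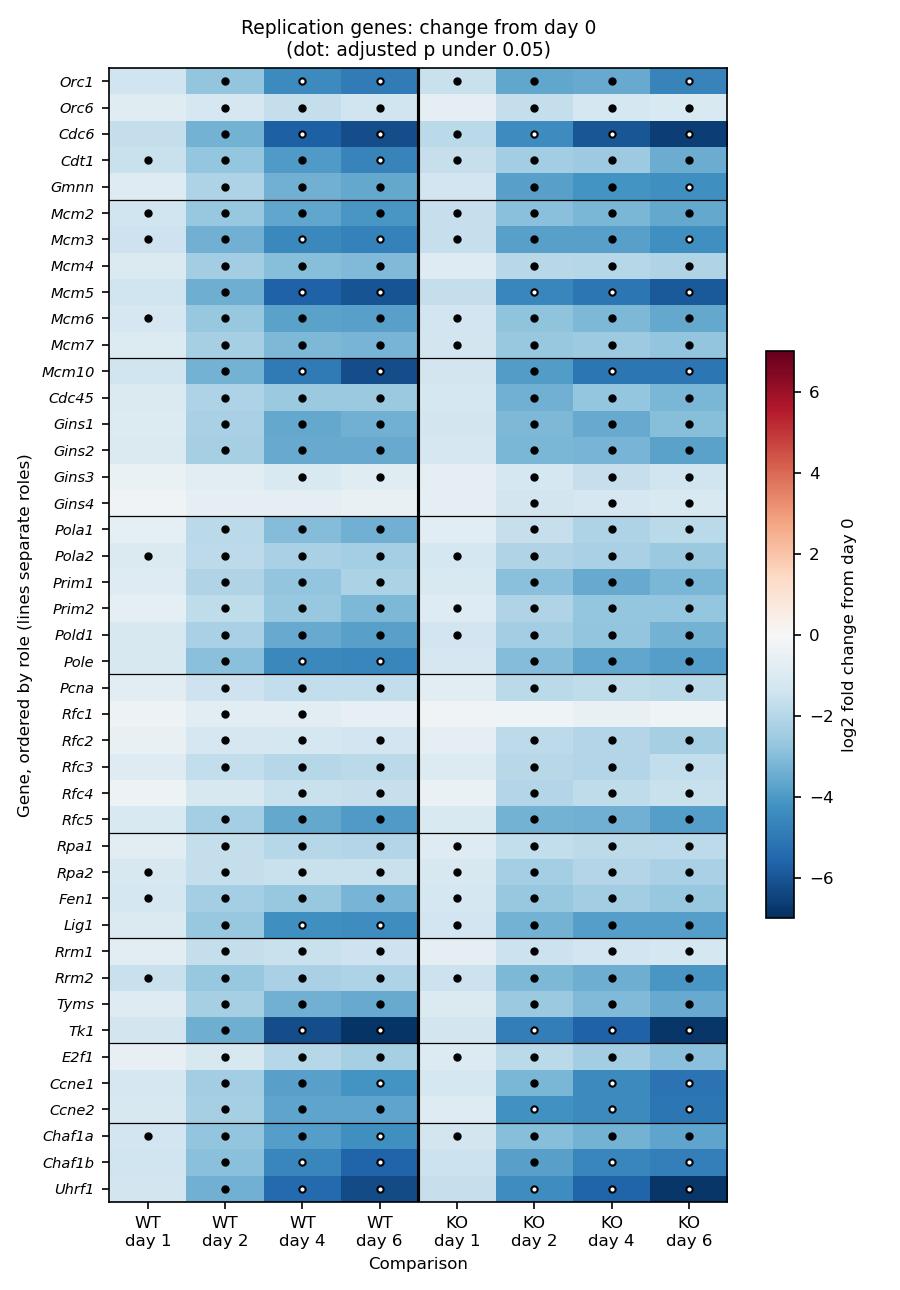
Log2 fold change from day 0 of the 43 replication genes (rows, ordered by role) on days 1, 2, 4 and 6 in WT and KO (columns); colour gives the fold change and a dot marks an adjusted p under 0.05. All columns from day 2 on are dotted for 40 to 42 members, the pale rows without full dots being Gins3, Gins4, Rfc1 and Rfc4.

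Summed over the members, the machinery fell from a mean of 5559 CPM on day 0 in WT to 2600, 1172, 900.3 and 899 CPM on days 1, 2, 4 and 6, which is 46.8%, 21.1%, 16.2% and 16.2% of day 0. The KO sums were 5498, 2455, 964, 903 and 830.5 CPM, or 44.7%, 17.5%, 16.4% and 15.1% of day 0. The sum leans on the most abundant members, Rrm2, Rrm1 and Rpa1, with means over all libraries of 292, 208 and 189 CPM. Rrm2 was left at 22.3% in WT and 5.91% in KO on day 6. The sums therefore do not show that the other members fell further in KO. The median member stood at 9.96% of its day 0 level in WT on day 6 and at 10.1% in KO; 22 and 21 members were under 10%, and 10 in each line were above 25%.

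Day 1 was uneven between libraries. The sum over members was 2551, 2946, 3569 and 1336 CPM in the 4 WT libraries and 1685, 3344, 3462 and 1330 CPM in the 4 KO libraries, while on day 0 KO library 1, at 3415 CPM, stood below the other 3 (5512 to 6590 CPM). Library 5 was lowest on day 1 in both lines. Without WT day 1 library 5 no member passed the test on day 1 in WT, and without KO day 1 library 5 the KO count was 6; without KO day 1 library 3 it was 34. Other libraries moved the counts less: 5 without WT day 0 library 3, 4 and 14 without WT day 1 libraries 1 and 4, and in KO 8, 27 and 10 without day 0 libraries 3, 1 and 5 and 10 without day 1 library 1. Libraries with the same number deviated together between day 0 and day 1 in both lines. With the replicate number as a block, 19 members were below day 0 on day 1 in WT (4.09% of all genes) and 32 in KO (7.32%). With only the groups of the contrast in the fit, the day 1 count was 0 in KO, so the KO day 1 calls given by gene rest on the spread shared over all groups, and it was 9 in WT. The count of members down by day 1 therefore moves with few libraries and with the fit, while the counts for days 2, 4 and 6 were between 39 and 43 without any 1 library.

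The steps between sampled days were tested next. In WT, 14 members were lower on day 2 than on day 1 (2.17% of all genes lower; 29 members and 4.95% with the replicate block) and 15 were lower on day 4 than on day 2 (6.45%). In KO, 21 were lower on day 2 than on day 1 (1.62%), and none of the 43 was lower on day 4 than on day 2 (0.428%). For that KO step 3 members reached an unadjusted p under 0.05, while DESeq2 called 0. Between day 4 and day 6 no member was called in either line by edgeR or DESeq2, with 1 member at an unadjusted p under 0.05 in each line. By edgeR 0% of all genes were higher and 0% lower on that step in either line, so this is not particular to the members. By day 2 the median member had completed 65.6% of its day 0 to day 6 log2 fall in WT and 85.2% in KO, and by day 4 96.2% and 90.8%. The difference between the lines in the step from day 2 to day 4 was tested directly. In 39 of the 43 members the KO step was above the WT step. The median difference was 0.73 on the log2 scale, beside 0.06 over all genes tested. The members share the same libraries, so the 39 are not independent, and the share of all genes with that sign was not counted. No member passed (0% of all genes higher and 0% lower, lowest adjusted p 0.618 for Orc1). An unadjusted p under 0.05 was reached by 2 members, while DESeq2 called 0. The step counts moved with single libraries. For WT day 1 to 2 the count was 0 without day 1 library 4 and 25 without day 1 library 5, and for WT day 2 to 4 it was 1 without day 2 library 3 or day 4 library 1. For KO day 1 to 2 it was 0 without day 2 library 1 or 5, 1 without day 1 library 4, 6 without day 1 library 3 and 33 without day 1 library 5.

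Licensing genes held a wide span of falls, from near the deepest of the 43 to near the shallowest. Cdc6, which loads the MCM ring at origins, was at 47.1, 64.5, 53.3 and 78.0 CPM in the WT libraries of day 0 and at 0.251, 0.392, 0.317 and 2.65 CPM on day 6. In KO it was at 21.6, 54.4, 67.1 and 68.2 CPM and then 0.833, 0.272, 0.266 and 0.818 CPM, which left 1.04% beside 1.49% in WT. The days are far apart in both lines, with log2 changes of -6.19 ± 0.70 in WT (adjusted p = 3.73e-08) and -6.61 ± 0.54 in KO (adjusted p = 5.41e-08). Its partner Cdt1 was called lower on day 1 already in both lines, with log2 changes of -1.57 ± 0.42 in WT (adjusted p = 0.0118) and -1.61 ± 0.57 in KO (adjusted p = 0.00631). The WT call was lost without day 1 library 5, and the KO call with only the groups of the contrast in the fit. Libraries of Cdt1 are given with the comparison of the lines. Orc1, the ATP-binding subunit of the origin recognition complex, was left at 3.16% and 3.97% on day 6, and Gmnn, whose product geminin blocks Cdt1, at 8.20% and 5.10%. Orc6, the smallest subunit of the same complex, kept far more. It was at 55.4, 68.0, 31.5 and 62.2 CPM on day 0 and 20.9, 15.4, 21.0 and 26.4 CPM on day 6 in WT, and at 31.5, 79.8, 36.3 and 67.3 CPM and 18.7, 29.1, 25.6 and 28.2 CPM in KO. That left 38.6% and 47.3% (log2 -1.38 ± 0.30, adjusted p = 0.00145, and -1.08 ± 0.36, adjusted p = 0.0123); the KO call was lost without day 0 library 3 (adjusted p = 0.0747). Orc6 overlaps Vps35 on the other strand.

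All 6 genes of the MCM2-7 ring fell, and they came to rest at different levels. Mcm6, highest of the ring in mean CPM, was at 282, 300.4, 332 and 281 CPM in WT on day 0, 30.9, 71.7, 30.4 and 55.2 CPM on day 2 and 23.6, 17.4, 24.0 and 21.2 CPM on day 6. In KO it was at 175, 305, 288 and 349, then 35.6, 52.3 and 30.0, then 22.8, 20.2, 24.6 and 27.2 CPM. No library of day 2 or later reached the lowest library of day 0, and the level left on day 6 was 7.22% in WT (log2 -3.79 ± 0.12, adjusted p = 2.39e-10) and 8.49% in KO (log2 -3.56 ± 0.24, adjusted p = 2.02e-09). Mcm5 fell furthest, to 1.55% in WT and 1.69% in KO, and Mcm4 least, to 11.7% and 22.8%. The rest of the ring lay between, with Mcm2 at 5.96% and 8.35%, Mcm3 at 3.78% and 5.12%, and Mcm7 at 10.5% and 14.7%. Since the subunits form a ring of 1 copy each, their levels per kilobase of exon were compared as a description. The length joined the annotated exons of all transcripts of a gene, so the ratios between subunits also depend on the annotation. On day 0 the highest subunit stood 2.07 times above the lowest in WT and 2.56 times in KO. The ratio was 2.14 and 4.19 on day 1, 1.82 and 6.32 on day 2, 4.82 and 8.54 on day 4, and 5.71 and 13.7 on day 6, with Mcm4 highest and Mcm5 lowest in both lines from day 4 on. On day 6 in KO this was 16.3 CPM per kilobase for Mcm4 and 1.19 for Mcm5. The KO day 4 mean of Mcm5 was raised by library 3, at 21.45 CPM beside 3.996, 4.48 and 3.83 CPM in libraries 1, 4 and 5.

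Helicase activation genes split into a group that fell far and 2 GINS subunits that kept much of their level. Mcm10, which helps the ring open, was at 49.9, 69.3, 57.1 and 74.7 CPM on day 0 in WT and 0.503, 0.628, 0.887 and 1.45 CPM on day 6, and at 22.6, 45.5, 32.1 and 56.7 CPM on day 0 and 1.67, 0.815, 0.664 and 1.64 CPM in KO. It was left at 1.38% and 3.05% (log2 -6.18 ± 0.32, adjusted p = 2.74e-09, and -5.05 ± 0.43, adjusted p = 9.37e-08). Cdc45, the helicase cofactor, was left at 16.2% and 11.0%, Gins1 at 9.96% and 12.3%, and Gins2 at 8.58% and 7.52%. Gins4, a subunit of the same 4-part GINS complex, had the highest mean CPM of this role and is the only member never called lower in WT. Its WT libraries read 33.8, 45.3, 44.8 and 43.4 CPM on day 0 and 20.5, 22.8, 33.6 and 40.1 CPM on day 6, which overlap, with 69.9% left (log2 -0.52 ± 0.25, adjusted p = 0.151). Its KO libraries read 45.6, 85.1, 45.4 and 63.5 CPM and 23.9, 34.5, 28.4 and 28.5 CPM and did not overlap, with 48.1% left (log2 -1.05 ± 0.24, adjusted p = 0.00492). Whether the change in Gins4 differed between the lines was tested and did not pass on day 6 (difference -0.54 ± 0.35, adjusted p = 0.458). Gins3 was at 32.9, 40.2, 22.8 and 35.1 CPM and then 16.5, 17.2, 10.8 and 27.6 CPM in WT, and at 24.1, 39.3, 18.6 and 34.1 CPM on day 0 and 14.0, 7.34, 7.90 and 15.0 CPM in KO. It passed on day 6 with overlapping libraries in WT (55.0% left, log2 -0.87 ± 0.33, adjusted p = 0.0186) and without overlap in KO (38.2%, log2 -1.39 ± 0.36, adjusted p = 0.000536); the WT call was lost without day 0 library 3 or day 6 library 4 (adjusted p = 0.0547 and 0.0829). The 4 GINS subunits were therefore not kept in step: on day 6 in WT their remaining levels ran from 8.58% for Gins2 to 69.9% for Gins4.

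Polymerase and primase genes all fell from day 2 on. Pola2, the regulatory subunit of polymerase alpha and highest of the 6 in mean CPM, was at 63.5, 74.8, 95.9 and 85.0 CPM on day 0 in WT, 41.3, 41.6, 53.0 and 24.4 CPM on day 1 and 11.3, 15.1, 15.7 and 20.1 CPM on day 6. The KO values on the same days were 42.95, 89.8, 83.8 and 89.7, then 24.3, 36.1, 50.2 and 18.7, then 13.7, 11.0, 11.0 and 15.0 CPM. WT day 1 lay below all of WT day 0 (log2 -0.99 ± 0.27, adjusted p = 0.0244), and KO day 1 overlapped KO day 0 through the low day 0 library 1 and passed in the fit of all groups (log2 -1.24 ± 0.41, adjusted p = 0.00324). The WT day 1 call was lost without day 1 library 5. The level left on day 6 was 19.5% and 16.6%. Pola1, the catalytic subunit, was at 64.4, 70.7, 22.1 and 62.1 CPM and 7.79, 4.71, 3.30 and 6.15 CPM on days 0 and 6 in WT, and at 30.5, 38.3, 34.9 and 60.8 CPM on day 0 and 7.50, 9.78, 13.1 and 13.3 CPM in KO, so 10.0% and 26.6% were left. That gap between the lines did not pass (difference of the changes 1.44 ± 0.55, adjusted p = 0.119). WT day 0 library 4, the lowest of its group, bears on it: without that library the difference was 1.68 and passed (adjusted p = 0.0495). Pole, the catalytic subunit of the leading-strand polymerase, fell furthest of the 6, to 4.35% and 6.68%, Pold1 of the lagging-strand polymerase to 7.28% and 10.1%, and the primase subunits Prim1 and Prim2 to 21.5% and 11.4% in WT and 10.8% and 15.3% in KO.

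The clamp and its loader were the role with the highest median level left on day 6, 31.4% in WT and 28.7% in KO. Pcna, the sliding clamp, was at 199, 217, 143 and 201 CPM on day 0 in WT and 43.2, 48.3, 68.6 and 69.2 CPM on day 6, and at 109, 194, 111 and 188 CPM on day 0 and 43.3, 44.3, 46.4 and 31.7 CPM in KO. The days did not overlap in either line, with 30.2% and 27.5% left (log2 -1.73 ± 0.22, adjusted p = 1.69e-05, and -1.86 ± 0.26, adjusted p = 9.57e-06). Rfc1, the large subunit of the clamp loader, kept more of its level than the rest of this role. It was at 97.3, 88.8, 36.1 and 78.7 CPM on day 0 and 61.3, 48.3, 47.3 and 44.4 CPM on day 6 in WT, and at 51.0, 54.8, 43.7 and 86.2 CPM on day 0 and 40.3, 53.0, 48.9 and 48.7 CPM in KO, and the days overlapped in both lines. In WT it passed on day 2 and day 4 (log2 -0.75 ± 0.35, adjusted p = 0.0254, and -0.77 ± 0.41, adjusted p = 0.0124) and missed on day 6 (66.9% left, adjusted p = 0.0531). It passed on day 6 without WT day 0 library 4 (adjusted p = 0.00723), without WT day 6 library 1 (adjusted p = 0.0401) and with the replicate block within the line (adjusted p = 0.0385). In KO it passed on no day, with 81.0% left on day 6 (log2 -0.30 ± 0.23, adjusted p = 0.336). The small subunits fell to different floors, from 6.44% and 6.73% for Rfc5 to 40.0% for Rfc2 in WT and 33.5% for Rfc4 in KO. Rfc3 was left at 27.5% and 29.9%, Rfc2 at 19.7% in KO and Rfc4 at 32.7% in WT. On day 6 Rfc2 was lower in KO than in WT without overlap and was not called (-0.77 ± 0.15, adjusted p = 0.0803). It passed with the replicate block over all groups (adjusted p = 0.0155). With only the groups compared in the fit, that difference (adjusted p = 0.00345) and its genotype by day difference on day 6 (-1.06, adjusted p = 0.0305) passed. Rfc4 was called lower in WT only from day 4 on (day 2 log2 -1.10 ± 0.36, adjusted p = 0.0911).

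Of the genes for single-strand binding and joining of Okazaki fragments, Rpa1 had the highest mean CPM. This large subunit of replication protein A, which coats single-stranded DNA also in repair, was at 289, 333, 390.2 and 318 CPM in WT on day 0 and 82.5, 76.6, 72.9 and 86.4 CPM on day 6. In KO it was at 330.2, 503, 465 and 492 CPM on day 0 and 136, 109, 136 and 126 CPM. The days did not overlap, and 23.9% and 28.3% were left (log2 -2.06 ± 0.11, adjusted p = 9.21e-08, and -1.82 ± 0.16, adjusted p = 1.27e-06). Rpa2, the middle subunit, was at 59.3, 76.5, 86.3 and 81.7 CPM and 18.8, 21.7, 29.8 and 30.9 CPM in WT and at 59.0, 153, 111 and 126 CPM on day 0 and 20.7, 19.3, 22.0 and 31.2 CPM in KO, with 33.3% and 20.7% left. Lig1, the ligase that seals Okazaki fragments, fell further, to 4.98% and 7.00%, and the flap nuclease Fen1 to 10.4% and 15.8%. Fen1 was among the members already called lower on day 1 in both lines (log2 -1.21 ± 0.29, adjusted p = 0.00635, and -1.26 ± 0.40, adjusted p = 0.00283). The WT call was lost without day 1 library 5, and the KO call with only the groups of the contrast in the fit.

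Nucleotide supply held the member with the least left on day 6, Tk1, beside the 2 members highest in mean CPM, Rrm2 and Rrm1. Tk1, the thymidine kinase of the salvage pathway, was at 115, 152, 238 and 155 CPM in WT on day 0, 4.15, 35.5, 1.81 and 20.8 CPM on day 2 and 0.503, 0.314, 1.39 and 3.62 CPM on day 6. In KO it was at 123, 304, 219.8 and 253, then 2.71, 18.2 and 2.76, then 1.39, 1.36, 1.06 and 4.09 CPM. The WT libraries of day 2 were themselves spread widely, with library 3 highest and library 4 lowest. On day 6, 0.883% and 0.878% were left (log2 -6.87 ± 0.74, adjusted p = 1.96e-06, and -6.79 ± 0.50, adjusted p = 2.96e-06). Rrm1 and Rrm2, the large and small subunits of ribonucleotide reductase, parted from each other. Rrm1 was left at 37.0% in WT and 42.2% in KO, and Rrm2 at 22.3% and 5.91%; the Rrm2 libraries follow with the comparison of the lines. Tyms, which makes thymidylate, was left at 8.58% and 8.72%.

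The genes of S-phase entry and of chromatin behind the fork fell in both lines. Uhrf1, which brings the maintenance DNA methyltransferase to newly copied DNA, was at 178, 250.03, 259.6 and 276 CPM in WT on day 0 and 2.01, 1.26, 2.53 and 7.00 CPM on day 6. In KO it was at 92.7, 184, 229 and 251 CPM on day 0 and 2.499, 0.543, 0.929 and 2.78 CPM. No day 6 library came near day 0, with 1.33% and 0.893% left (log2 -6.27 ± 0.52, adjusted p = 4.21e-08, and -6.80 ± 0.61, adjusted p = 4.45e-08). Chaf1a and Chaf1b, subunits of the chromatin assembly factor that places histones behind the fork, were left at 5.18% and 2.07% in WT and 7.59% and 3.68% in KO. Ccne1 and Ccne2, the E cyclins that activate Cdk2, were left at 5.49% and 7.95% in WT and 2.76% and 3.13% in KO. E2f1, the transcription factor, kept 19.9% and 13.2%.

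**Figure D2:**
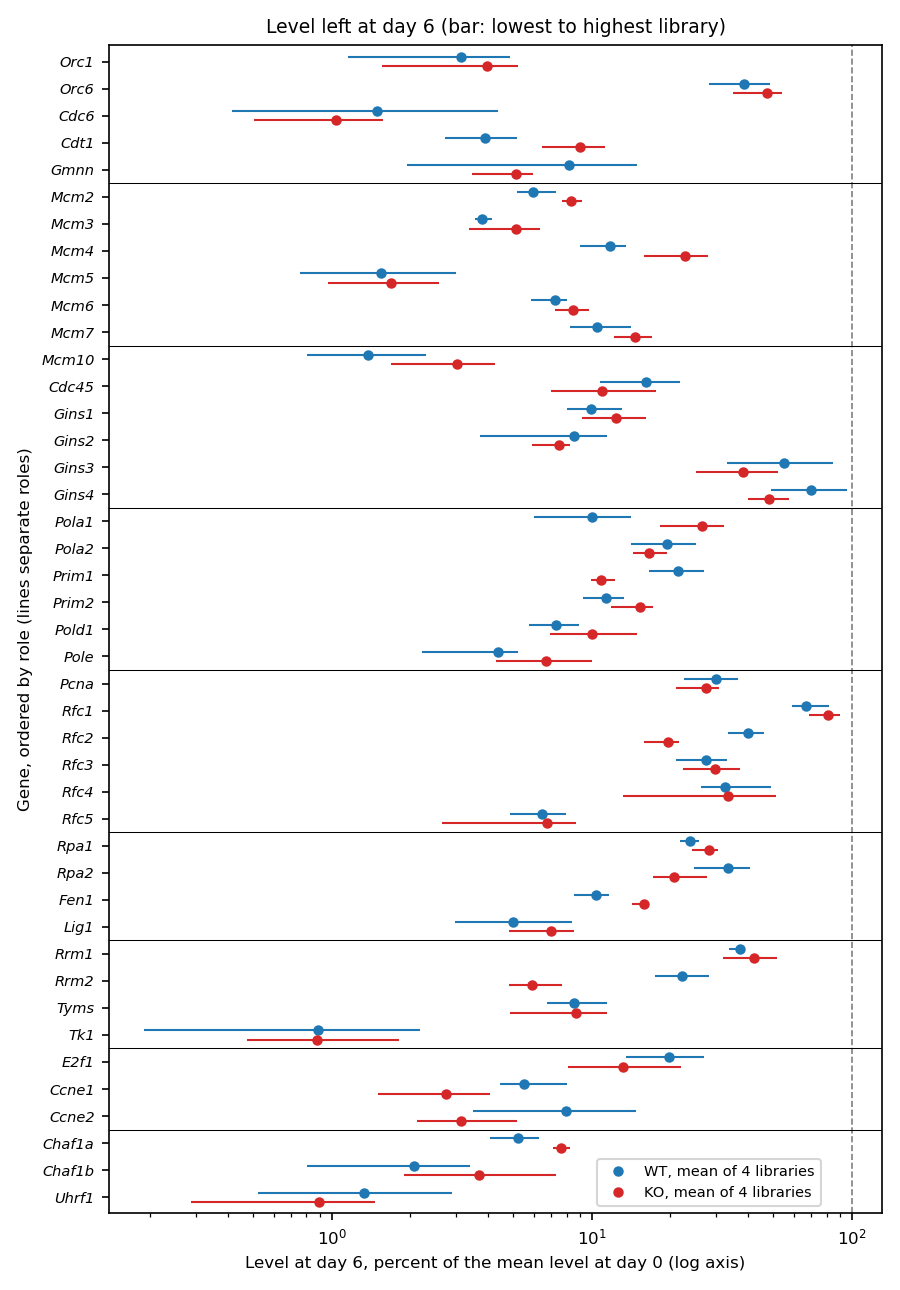
Level on day 6 as percent of the mean day 0 level of the same line (log axis) for each of the 43 members, ordered by role; points are means of 4 libraries, bars run from the lowest to the highest library, blue WT and red KO. Members range from under 1% (Tk1 in both lines, Uhrf1 in KO) to 81.0% (Rfc1 in KO), and Rrm2 has 22.3% left in WT and 5.91% in KO.

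In the fit without a replicate block few members differed between KO and WT, and those that did differed in opposite directions. With the block within the day, 16 members were lower and 1 higher in KO on day 2 (14.6% and 11.3% of all genes), as given below. On day 0 no member was called (6.46% of all genes were higher and 9.09% lower in KO); 2 members reached an unadjusted p under 0.05 and none passed by DESeq2. On day 1 E2f1 was lower and none was higher (8.1% of all genes higher, 9.93% lower). On day 2 Mcm4 was higher and E2f1 lower (7.64% higher, 10.3% lower). On day 4 Cdt1, Mcm4 and Pold1 were higher and Rrm2 and E2f1 lower (13.3% higher, 14.2% lower). On day 6 Cdt1, Mcm4 and Rpa1 were higher and Rrm2 and E2f1 lower (14.5% higher, 14.4% lower). In this fit without a replicate block, 0 to 3 of 43 in a direction is a lower share than that of all genes on every day; with the block within the day this did not hold for day 2, as given with the blocked counts. The median difference of the 43 members was -0.01, -0.21, -0.51, 0.17 and 0.21 on the log2 scale on days 0, 1, 2, 4 and 6, and that of all genes was between -0.04 and 0.02.

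**Figure D3:**
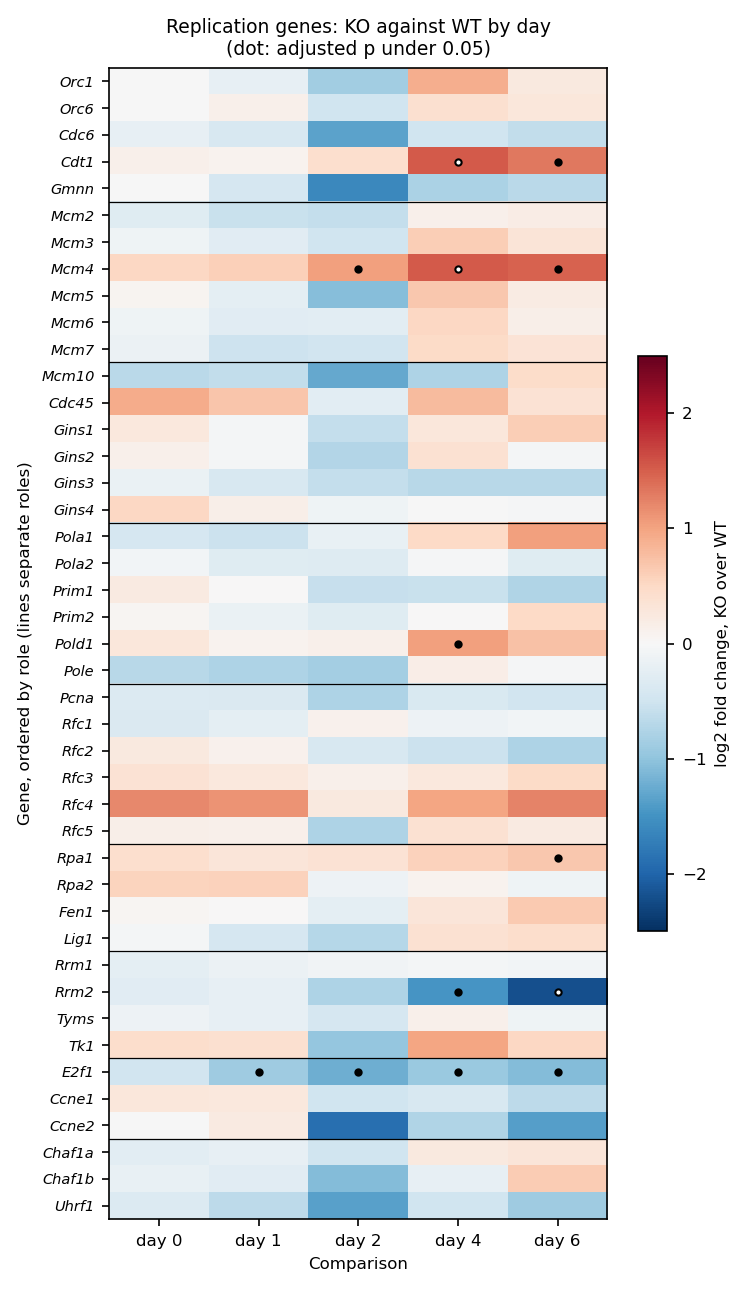
Log2 fold change of KO over WT for the 43 members (rows, ordered by role) on days 0, 1, 2, 4 and 6 (columns); red is higher in KO, blue lower, and a dot marks an adjusted p under 0.05. In this fit without a replicate block dots are few: E2f1 from day 1, Mcm4 from day 2, Cdt1 and Rrm2 from day 4, Pold1 on day 4 and Rpa1 on day 6.

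Rrm2 (chr12:24708241-24714146, plus strand, GRCm38) had the largest difference and is the only member whose change from day 0 passed the test of a difference between the lines. Its WT libraries were at 992, 1004, 651 and 879 CPM on day 0, 157, 168, 59.8 and 168 CPM on day 2 and 249, 186, 154 and 197 CPM on day 6. Its KO libraries were at 548, 948, 627 and 785, then 68.4, 113 and 60.8, then 56.1, 41.3, 39.6 and 34.8 CPM. The lines overlapped on days 0, 1 and 2 and not on days 4 and 6, where every KO library was below every WT library. Group means were 185 ± 49.1 CPM (SD, n = 4) in WT and 66.9 ± 28.7 CPM (SD, n = 4) in KO on day 4, and 196 ± 39.6 and 42.9 ± 9.18 CPM on day 6. KO against WT was -1.47 ± 0.37 on day 4 (adjusted p = 0.00155) and -2.19 ± 0.20 on day 6 (adjusted p = 1.37e-05). The change from day 0 to day 6 in KO minus that in WT was -1.92 ± 0.31 on the log2 scale, a larger fall in KO (genotype by day, adjusted p = 0.00866; 5.91% of all genes positive and 4.04% negative). No other member passed that test on day 6, and none did on days 1, 2 and 4, where 0, 1 and 3 reached an unadjusted p under 0.05 and DESeq2 called 0. Of all genes, 0% were positive and 0% negative on day 1, 0.327% and 0.218% on day 2, and 4.54% and 3.13% on day 4. On days 1 and 2 the test thus called almost no gene of any kind. Leaving out any 1 library kept the calls of Rrm2 on days 4 and 6.

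E2f1 (chr2:154559407-154569892, minus strand) was lower in KO throughout differentiation. It was at 53.3, 55.9, 64.4 and 51.8 CPM in WT on day 0, 41.0, 37.2, 38.6 and 34.4 CPM on day 1 and 28.8, 31.7, 17.3 and 25.0 CPM on day 2, and then at 9.55, 17.6, 9.80 and 18.9 CPM on day 4 and 8.79, 13.2, 7.60 and 15.2 CPM on day 6. The KO libraries read 38.1, 44.2, 38.4 and 40.3 CPM on day 0, 23.0, 23.4, 21.6 and 13.9 CPM on day 1 and 12.4, 10.1 and 10.5 CPM on day 2. Later they read 6.66, 9.90, 6.10 and 6.91 CPM on day 4 and 8.89, 3.26, 3.98 and 5.15 CPM on day 6. KO lay below WT without overlap on days 0, 1 and 2, and overlapped it on days 4 and 6. The log2 difference was -0.49 ± 0.09 on day 0 (adjusted p = 0.187), -0.89 ± 0.18 on day 1 (adjusted p = 0.0113), -1.23 ± 0.21 on day 2 (adjusted p = 0.00177), -0.92 ± 0.30 on day 4 (adjusted p = 0.00662) and -1.08 ± 0.39 on day 6 (adjusted p = 0.00221). The day 1 call was lost without KO library 5 (adjusted p = 0.0583). The test of whether its change from day 0 differs between the lines did not pass on any day (day 2 difference -0.74 ± 0.23, adjusted p = 0.53).

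Mcm4 (chr16:15623897-15637400, minus strand) was the member most often higher in KO. It was at 173, 202, 133 and 210.4 CPM on day 0, 26.2, 40.3, 21.3 and 45.9 CPM on day 2 22.3, 19.5, 19.3 and 28.7 CPM on day 4 and 22.9, 20.9, 16.2 and 24.4 CPM on day 6 in WT. In KO it was at 116, 265, 263 and 382 CPM, then 41.9, 80.7 and 81.1 CPM, then 40.4, 70.7, 68.4 and 79.5 CPM, then 40.8, 63.8, 57.6 and 71.8 CPM. The lines overlapped up to day 2 and not on days 4 and 6. The log2 difference was 0.51 ± 0.39 on day 0 (adjusted p = 0.308), 1.02 ± 0.41 on day 2 (adjusted p = 0.0435), 1.53 ± 0.25 on day 4 (adjusted p = 0.000872) and 1.48 ± 0.22 on day 6 (adjusted p = 0.00127). The day 2 call was lost without WT library 1 or 4 or KO library 3 or 5 (adjusted p from 0.108 to 0.185).

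Cdt1 (chr8:122568015-122573554, plus strand) was higher in KO on days 4 and 6. Its group means were 13.3, 5.69 and 3.44 CPM on days 2, 4 and 6 in WT and 17.8, 16.4 and 8.73 CPM in KO. In WT it read 53.0, 77.4, 126 and 97.8 CPM on day 0, 8.47, 16.6, 17.3 and 10.7 CPM on day 2, 3.12, 6.89, 7.90 and 4.84 CPM on day 4 and 3.02, 3.77, 4.56 and 2.41 CPM on day 6. In KO it read 34.0, 124, 106 and 124 CPM on day 0, 15.2, 21.9 and 16.2 CPM on day 2, 10.8, 21.7, 18.7 and 14.5 CPM on day 4 and 10.3, 6.25, 7.44 and 11.0 CPM on day 6. The lines overlapped on days 0, 1 and 2, and every KO library was above every WT library on days 4 and 6. The difference was 1.53 ± 0.37 on day 4 (adjusted p = 0.00257) and 1.32 ± 0.27 on day 6 (adjusted p = 0.0121, and 0.0514 without WT day 6 library 5). Whether the change of Cdt1 from day 0 differed between the lines was tested by genotype by day. That difference did not pass on day 4 (1.39 ± 0.64, adjusted p = 0.101) or day 6 (1.19 ± 0.59, adjusted p = 0.164). With the replicate number as a block over all groups it passed on both days (adjusted p = 0.0192 and 0.036). Gm20388 overlaps Cdt1 on the same strand.

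**Figure D4:**
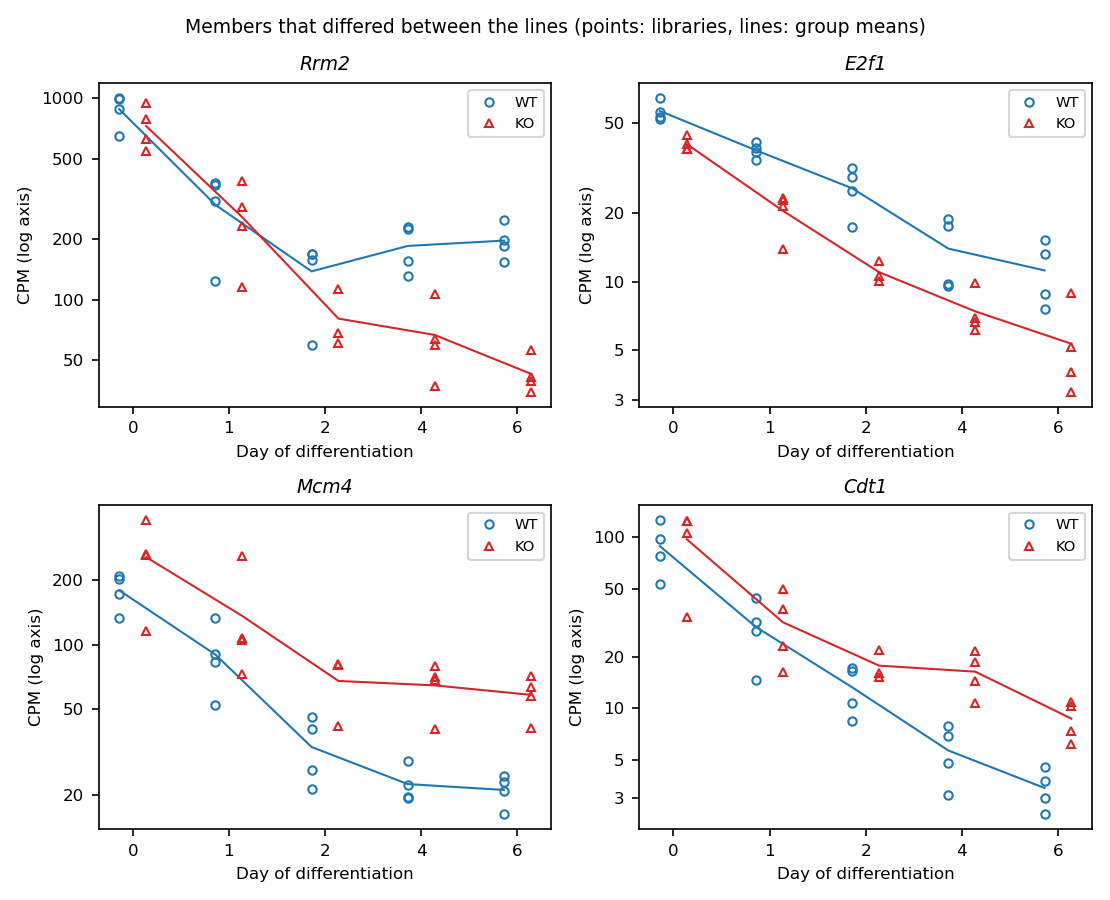
CPM (log axis) of Rrm2, E2f1, Mcm4 and Cdt1 by day of differentiation; points are libraries (circles WT, triangles KO; 4 per group, 3 in KO day 2) and lines join group means. Rrm2 and E2f1 end lower in KO, and Mcm4 and Cdt1 end higher.

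The 2 weaker calls were Pold1 and Rpa1. Pold1 was at 3.24, 5.59, 6.01 and 4.73 CPM in WT and 6.96, 14.8, 9.96 and 8.47 CPM in KO on day 4 (1.03 ± 0.30, adjusted p = 0.0451); its KO library 3 was highest, and without that library the difference was 0.81 and did not pass (adjusted p = 0.153). The Pold1 call was also lost without WT library 1, 3 or 5 or KO library 4 or 5 (adjusted p from 0.0594 to 0.133). Rpa1 on day 6, with the libraries given above, differed by 0.67 ± 0.09 (adjusted p = 0.0482) without overlap, and the call was lost without 7 of the 8 single libraries, with adjusted p up to 0.115. Among members with the next smallest p, Rfc4 was at 31.8, 36.3, 30.2 and 37.0 CPM in WT and 34.2, 121, 50.3 and 106 CPM in KO on day 0 (1.20 ± 0.44, adjusted p = 0.0831), and at 18.2, 38.2, 31.7 and 16.8 CPM in WT and 12.7, 134, 49.2 and 32.9 CPM in KO on day 1 (1.12 ± 0.76, adjusted p = 0.102). On day 0 KO library 1 lay within the WT range and the other 3 above it; on day 1 KO library 1 was below every WT library and libraries 3 and 4 above. Without KO library 1 the day 0 and day 1 differences passed (1.45 on each day, adjusted p = 0.0448 and 0.0219). Rfc4 was also higher in KO on day 4, without overlap (0.98 ± 0.31, adjusted p = 0.137), and on day 6, with overlap (1.25 ± 0.49, adjusted p = 0.0537). The day 6 difference passed by DESeq2 (adjusted p = 0.0483) and with the replicate block over all groups (adjusted p = 0.0157). Cdc45 was at 49.7, 64.2, 64.0 and 60.7 CPM in WT and 46.3, 149, 116 and 142 CPM in KO on day 0 (0.93 ± 0.40, adjusted p = 0.134), and Rpa2 at 31.7, 45.7, 43.7 and 18.0 CPM in WT and 31.3, 92.2, 57.1 and 25.7 CPM in KO on day 1 (0.57 ± 0.52, adjusted p = 0.231). Mcm4, Cdc45, Rfc4 and Chaf1b lie on chromosome 16, with day 0 differences of 0.51, 0.93, 1.20 and -0.18, none called in this fit. Whether their position bears on these differences was not tested. Gmnn was at 2.31, 11.1, 2.00 and 13.0 CPM in WT and 2.03, 2.72 and 2.21 CPM in KO on day 2 (-1.61 ± 0.71, adjusted p = 0.051). On that day WT libraries 3 and 5 were high and libraries 1 and 4 were low, near the KO libraries; without WT library 1 or 4 the difference passed (adjusted p = 0.0218 and 0.0186), as it did by DESeq2 (adjusted p = 0.0268).

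Libraries with the same number also deviated together across the lines on days 0, 1, 2 and 4, and with the replicate number as a block within each day more members were called. On day 0 Cdc45, Rfc4 and Rpa1 were then higher and Pole lower (13.2% of all genes higher, 15.8% lower), and on day 1 Mcm2, Mcm7, Pole and E2f1 were lower (11.8% higher, 15.8% lower). On day 2 Mcm4 was higher and 16 members were lower (11.3% higher, 14.6% lower), among them Mcm10 (-1.69, adjusted p = 0.0146), Uhrf1 (-1.65, adjusted p = 0.0112), Gmnn (-1.64, adjusted p = 0.0144), Cdc6 (-1.54, adjusted p = 0.0321) and Pcna (-0.88, adjusted p = 0.03). WT day 2 library 4 has no KO partner and carried no weight in that fit; it had the lowest sum over members of its group (746 CPM, where the other 3 ran from 925 to 1631). On day 4, 7 members were higher (Cdt1, Mcm4, Mcm7, Cdc45, Pold1, Rfc4 and Rpa1) and 4 lower (Gins3, Rfc2, Rrm2 and E2f1), with 18.8% of all genes higher and 19% lower. The day 2 count was thus 2 without a block and 17 with the block within the day, while it was 3 with the replicate number as a block over all groups and 3 without WT library 4 and without a block.

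KO day 4 library 3 stood apart from its group in these genes. For 34 of 43 members it was above the other 3 libraries and for 2 below them, with a median ratio of 1.63 to their mean. The same count over all genes was not made, so whether this is particular to the members is not known. Over all genes tested, library 3 had a mean correlation of 0.954 with the rest of its group. Libraries 1, 4 and 5 had 0.962, 0.972 and 0.969. With library 3 left out, 5 members differed from WT on day 4, with Pold1 lost and Uhrf1 gained (-1.86, adjusted p = 0.0413), and 42 were below KO day 0. Whether the markers of myotube formation bear on the differences between the lines was not tested: their summed level was lower in KO on days 4 and 6 in every library (5100 to 10858 against 17297 to 22671 CPM on day 4, and 6140 to 9917 against 18197 to 24829 CPM on day 6). Fibroblast markers, 4 of 6 of which were tested, split on day 6, with Pdgfra and Col3a1 higher and Dcn and Col1a1 lower in KO; their sum ran from 262 to 848 CPM in WT and from 422 to 679 CPM in KO, with Thy1 at 0. Their part in the result was not tested.

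Other genes of the pathway moved with the members. Of 54 further replication genes, 8, 41, 41 and 40 were below day 0 on days 1, 2, 4 and 6 in WT, and 16, 42, 43 and 43 in KO. Of all genes, 1.87%, 13.6%, 24.3% and 27.8% were lower on those days in WT and 3.8%, 13.9%, 19.6% and 23.1% in KO. On day 6, 5 of the 54 were above day 0 in WT (21.7% of all genes higher) and 4 in KO (20.5%). The median log2 change of the 54 was -2.05 and -1.77, a shallower value than for the members. The smallest p-values on day 6 in WT belonged to Dtl, an adaptor for the degradation of Cdt1 (-5.05, adjusted p = 4.87e-10), Ssrp1, a histone chaperone subunit (-1.71, adjusted p = 6.06e-10), Dut, which clears dUTP (-3.68, adjusted p = 1.1e-09), and Wdhd1, a fork protein (-4.21, adjusted p = 1.27e-09). Between the lines on day 6 Cdk2, the kinase of cyclin E, was lower in KO (-1.47, adjusted p = 8.51e-07), as was Cdc25a, a phosphatase that activates it (-0.84, adjusted p = 0.00198), while Chtf8 (0.62, adjusted p = 0.00511) and Pold2 (0.99, adjusted p = 0.0268) were higher. Cdk2 was at 65.1 ± 6.85 CPM (SD, n = 4) on day 0 and 109.9 ± 11.3 CPM on day 6 in WT (0.76, adjusted p = 0.00181), and at 66.6 ± 15.9 and 39.8 ± 10.4 CPM in KO (-0.74, adjusted p = 0.00285). The same count over days for 26 mitosis genes was 0, 26, 26 and 26 lower in each line, beside the shares of all genes given above. Their medians on day 6 were -5.97 in WT and -6.11 in KO, further below 0 than those of the members (-3.34 and -3.32). Cdc20, the activator of the anaphase-promoting complex, had the smallest p among them (-6.77 and -6.42, adjusted p = 3.03e-09 and 1.14e-08).

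The proteins that restrain E2F and cyclin-dependent kinases followed other courses. Rb1, the retinoblastoma gene, was higher on day 6 than on day 0 in both lines, from 41.4 ± 17.4 to 328 ± 119 CPM (SD, n = 4) in WT (2.98, adjusted p = 5.03e-07) and from 29.9 ± 7.66 to 190.0 ± 55.9 CPM in KO (2.67, adjusted p = 4.52e-06). Its relative Rbl1 was lower in both (-2.48, adjusted p = 3.55e-07, and -2.32, adjusted p = 2.02e-06). Of the 12 measured E2F and pocket-protein genes, 5 were higher and 6 lower on day 6 in WT, beside 21.7% and 27.8% of all genes, and 5 and 3 in KO, beside 20.5% and 23.1%. Between the lines on day 6, E2f5 (1.29, adjusted p = 0.000264), Rbl2 (0.82, adjusted p = 0.00901) and E2f3 (0.78, adjusted p = 0.00903) were higher in KO and none was lower. Cdkn1a, the kinase inhibitor p21, rose from 244 ± 57.5 to 3895 ± 379 CPM in WT (4.00, adjusted p = 6.23e-11) and from 169.5 ± 44.4 to 1436 ± 197 CPM in KO (3.08, adjusted p = 8.5e-09), and on day 6 was lower in KO (-1.44, adjusted p = 0.000584). Cdkn2c (-1.35, adjusted p = 0.000719) and Cdkn2d (-1.05, adjusted p = 0.00309) were lower in KO as well, so 3 of the 5 inhibitors tested were lower on day 6 and none was higher, beside 14.4% and 14.5% of all genes. No test linked these inhibitors to the members, whose median level left on day 6 was 9.96% in WT and 10.1% in KO.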

How the data were processed

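RNA was sequenced in 39 libraries of WT and KO C2C12 cells with a stranded mRNA kit, per the labels' protocols. The deposited values are raw counts of reads per gene. Per the submitters' processing notes the tools were FastQC 0.11.9, STAR 2.7.9, featureCounts 2.0.3 and DESeq2, with the builds GRCm38 and GRCh38; the annotation and the strand setting are not given in the sources used here. Of the values above 0, 64.4% were even, so mates may have been counted separately. The table holds 1 column that matches no sample, which was not used.

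The counts as deposited were fitted with edgeR 4.0.16 (R 4.3.3; filterByExpr by group, TMM factors of 0.904 to 1.05, quasi-likelihood fit with robust spread) in 1 model of 10 group means with 29 residual degrees of freedom. Of 29980 genes 13780 were tested, and p-values were Benjamini-Hochberg adjusted over them; calls are at an adjusted p under 0.05. Errors beside a log2 difference are standard errors from log2 CPM with a prior count of 2, and SD is over libraries. Gene positions, lengths and overlaps come from GENCODE mouse release 21, and promoters from RefSeq.

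All 43 members are described by role. Values by library were given for the most abundant member of each role, the 3 members with least and the 3 with most left on day 6 in each line, the 3 smallest p-values of each day between the lines, and the 3 smallest of genotype by day on days 2 and 6; Pold1 was added after its values were seen. Up to 4 genes with the smallest p were named per list. The members and lists were chosen with earlier results of these data known.

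Replicate numbers were taken to pair libraries where every same-numbered pair correlated above 0.1 in its deviations from the group means. Between the lines the criterion was met on day 0 (r 0.135), day 1 (0.291), day 2 (0.133) and day 4 (0.126), and missed on day 6 (-0.017), each the lowest of its pairs. Within both lines it was met for day 1 against 0, day 2 against 1 and day 4 against 2, and within KO also for day 2 against 0. The labels do not say what a number marks. Alternatives were other scalings, no filter, halved counts, DESeq2 1.42.0, only the groups compared, replicate blocks, each library left out, and WT day 0 library 4 with KO day 1 library 3 left out. The genotype by step test was chosen after seeing the data.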

Additional observations from a re-analysis of the deposited data

Results flagged for a closer look

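In 387 groups of 4 libraries, 27 values (6.98%) stood apart by Dixon's test at its 95% critical value; chance alone marks about 1 in 20. KO day 4 library 3 holds 10 of them. It was high for Gmnn (3.30 CPM, others at most 1.43), Mcm2 (34.0), Mcm3 (32.0), Mcm5 (21.5, others at most 4.48), Rpa1 (173), Lig1 (14.9), Tyms (14.2), Tk1 (14.3, others at most 1.72) and Ccne1 (7.01), and low for Pola1 (4.13, others at least 10.3). In the same group library 1 was high for Pcna (58.8 CPM).

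KO day 0 library 1 was low for Pola2 (42.95 CPM), Pold1 (38.0) and Ccne1 (25.6), where the other 3 libraries were at 75.8 CPM or more. WT day 0 library 4 was low for Gmnn (23.3 CPM) and high for Pole (90.0), and WT day 0 library 1 was low for Gins4 (33.8). KO day 1 library 3 was high for Gins3 (26.2 CPM).

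In WT day 2, library 3 was high for Pold1 (21.3 CPM) and library 4 low for Rrm2 (59.8, others at least 157). In WT day 4, library 5 was high for Gmnn (6.05 CPM) and library 1 low for Chaf1b (1.08). In WT day 6, library 5 was high for Cdc6 (2.65 CPM) and Rfc4 (16.5), library 4 low for Pole (1.65), and library 1 high for Ccne1 (4.27). In KO day 6, library 5 was high for Tk1 (4.09 CPM).

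The fall of Rrm2 from day 0 to day 6 differed between the lines by -1.92 on the log2 scale (edgeR genotype by day, adjusted p = 0.00866).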

How the results depend on the processing

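Counts of members below day 0 on days 2, 4 and 6 stayed within 1.5 times under all alternatives; those for day 1, for single steps and between the lines did not. Of 460 recomputed counts 398 stayed within that limit, and of 515 recomputed values of named members 481 kept their call, 29 lost it, 5 gained it and none turned its direction. The causes were not tested. With a replicate block, WT day 1 against day 0 gave 19 (within line) or 17 (over all groups), WT day 2 against day 1 29 or 28, and KO day 1 against day 0 32 or 31. Between the lines the replicate block within day gave 4, 4, 17, 11 and 12 on days 0, 1, 2, 4 and 6; the day 6 libraries share only a number. For day 6 with that block, and for the other alternatives, the share of all genes called was not computed. Those counts therefore do not show whether the members differ more often than other genes. The block over all groups gave 1 on day 0 and 8 on day 6, and for genotype by day 1 on day 4 and 2 on day 6. No other count moved by over 1.5 times with a block.

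With only the groups compared in the fit, WT day 2 against day 1 gave 1, WT day 4 against day 2 gave 3, KO day 1 against day 0 and KO day 2 against day 1 gave 0 each, the lines differed in 1 member on day 0 and 11 on day 6, and genotype by day on day 6 gave 2. Without WT day 0 library 4 and KO day 1 library 3, KO day 1 against day 0 gave 34, KO day 2 against day 1 gave 6, the lines differed in 1 member on day 0 and 4 on day 2, and genotype by day on day 6 gave 3. Without a filter WT day 4 against day 2 gave 7, and DESeq2 called 4 members between the lines on day 2.

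Leaving out 1 library at a time (39 fits), the range was 0 to 14 for WT day 1 against day 0, 0 to 25 for WT day 2 against day 1, 1 to 18 for WT day 4 against day 2, 6 to 34 for KO day 1 against day 0 and 0 to 33 for KO day 2 against day 1. Between the lines it was 0 to 1, 0 to 3, 1 to 3, 4 to 5 and 4 to 5 on days 0, 1, 2, 4 and 6, and for genotype by day on day 6 1 to 2. At the low levels of days 4 and 6 few reads stand behind genes such as Tk1 and Cdc6.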
